A study of Homo sapiens with 12 samples.

Results

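Antisense-named genes carry the symbol of another gene followed by AS and a number, and nearly all of them are annotated as long non-coding RNAs on the strand opposite to that gene. The 159 genes described here are those of the count table with such a name and at least 300 counts summed over the 12 libraries, apart from 2 genes that the rule leaves out. The table holds 1854 antisense-named genes among 63241 genes in all, so 1693 antisense-named genes fell under 300 counts, 706 of them with no count. The members were thus chosen on measured values, their own summed counts, and their high level is a description and not a result. Their sums had a median of 1052 counts, and together they held 512280 of the 9167135 counts in the table (5.59%). Just inside the threshold lay KHDC1-AS1 with 310 counts, SGO1-AS1 with 311 and INPP5B-AS1 with 314, and just outside it lay ZBTB11-AS1 with 295, GASK1B-AS1 with 289 and HRG-AS1 with 285. All 159 passed the filter on low counts, and for 157 of them the table also holds the coding gene in the name, called the namesake below.

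The samples were T98G and U251, which are established lines grown from human glioblastomas. For each line, 3 libraries were labelled PEPD-OE, for over-expression of PEPD (peptidase D, or prolidase, an enzyme that cleaves proline-containing dipeptides and so recycles proline from collagen), and 3 were labelled NC, a label that the sources used here do not expand. The groups are T98G PEPD-OE, T98G NC, U251 PEPD-OE and U251 NC, and nothing given here names the vector, a clone or a passage, or states that the replicates were grown as cultures of their own. The p-values therefore speak of the spread between these libraries, which may be technical.

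An antisense transcript can pair with the RNA of the gene on the other strand, compete with its transcription, guide chromatin factors to it or change its splicing and stability, and many start close to the gene's own promoter and share its regulation. Several of those described here sit at genes well known in glioblastoma biology: TGFB2 encodes a secreted growth factor, HIF1A the oxygen-regulated transcription factor of the hypoxia response, and SLC7A11 the cystine importer that feeds glutathione synthesis. Where exons of both transcripts cover the same bases, only the strand of the read tells them apart.

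The strand matters for every value below. The libraries were made with a dUTP method that marks the strand, but no source used here states which strand was counted. Over the 12 libraries, TALAM1, the transcript opposite the abundant nuclear RNA MALAT1, had 219603 counts and MALAT1 had 4272. MT-ND6, which lies on the mitochondrial strand opposite the other protein-coding genes, had 233897 counts per kilobase. Of those other genes, MT-CO1 had 10320 and MT-ND5 had 85224. If the table holds the strand opposite to the transcripts, a count under an antisense name is a read of the gene on the other strand, and each value below would describe that gene. Which case holds was not tested. Of the 159 members, 139 share exon bases with an exon of the namesake on the other strand, 12 share them only with an exon of another gene, 7 lie opposite no exon, and 1, SVIL-AS1, is not in GENCODE release 29 (GRCh38), the annotation used for positions. Over the 139, the shared part covered between 0.2% and 100% of the member's exons, with a median of 23.0% and 12 members covered in full. In such a stretch, counts of the antisense transcript and counts of the namesake cannot be told apart here, and a value is the number of read pairs filed under a name. In addition, 22 members overlap exons of some other gene on their own strand, among them THBS1-AS1 (41.4% of its exon bases), CCDC86-AS1 (28.9%) and IRF1-AS1 (8.6%), and their values are uncertain for that reason too.

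Short stretches of shared exon show how close the names are. The sequences below, from GENCODE 29 transcripts on GRCh38, are 30 bases long, read 5′ to 3′, and capitals mark bases that lie in an exon of both genes, which is every base here. They are shown for THY1-AS1, which is covered in full by THY1 and moved in opposite directions in the lines (chr11:119418876-119418905, plus strand, 632 shared exon bases in all), and for MIF-AS1, at high counts in T98G and few in U251 (chr22:23895119-23895148, minus strand, 687 shared bases). Each lies above the namesake's sequence from the same positions, of which it is the reverse complement.
THY1-AS1: AAATTCTTGGTGGTGCCCTCACATCTGGGG
THY1: CCCCAGATGTGAGGGCACCACCAAGAATTT
MIF-AS1: CCCGGGTGGAGCCAGCGCAGACAGCGTGGG
MIF: CCCACGCTGTCTGCGCTGGCTCCACCCGGG

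Library totals ranged from 464056 counts (T98G NC replicate 1) to 924204, so 3 counts in 1 library equal 3.25 to 6.46 per 1000000 counts of the unscaled total. The members took 4.98% to 5.25% of the counts of the T98G libraries and 5.8% to 6.2% of those of the U251 libraries. Levels below are CPM, counts per 1000000 counts of a library total scaled by the trimmed mean of M-values (TMM). PEPD averaged 159 ± 9.36 CPM in T98G PEPD-OE against 10.6 ± 7.96 in T98G NC, and 169 ± 10.2 in U251 PEPD-OE against 9.25 ± 3.33 in U251 NC (SD, n = 3 each), so the libraries went with their labels. Of the glioma and astroglial markers, CD44 averaged 701 and 779 CPM in T98G PEPD-OE and NC and 350 and 365 in U251 PEPD-OE and NC, GFAP 63.7 and 46.5 in T98G and 901 and 1392 in U251, and SOX2 0.503 and 0.419 in T98G and 267 and 369 in U251, while OLIG2 had no count in any library. In T98G PEPD-OE, T98G NC, U251 PEPD-OE and U251 NC, NES averaged 2.41, 6.07, 337 and 359 CPM. SOX9 averaged 30.1, 80.6, 98.2 and 89.3 in that order, and EGFR 52.9, 91.7, 51.5 and 28. S100B and AQP4 were at 1.26 CPM or less in every group. Nothing in these bulk values separates fewer cells carrying a transcript from less of it per cell.

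Counts under the antisense names exceeded those under the coding names. Per kilobase of annotated exon and over the 12 libraries, 150 of the 156 members with both lengths had more counts than the namesake (96.2%), with a median log2 ratio of 3.54 (range -2.56 to 11.97). Since the members were chosen by their counts, this is a description, and it carries the doubt about the counted strand given above. Among the antisense-named genes outside the rule with 30 to 299 counts, 66.5% of 269 exceeded the namesake, with a median log2 ratio of 0.9. By what lies on the opposite strand, the median log2 ratio was 6.2 for the 7 members opposite no exon, 4.4 for the 10 opposite an exon of another gene alone and 3.48 for the 139 that overlap the namesake. Within these 139 it was 3.18 where under 10% of the exon bases are shared and 4.84 where at least 50% are.

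**Figure D1:**
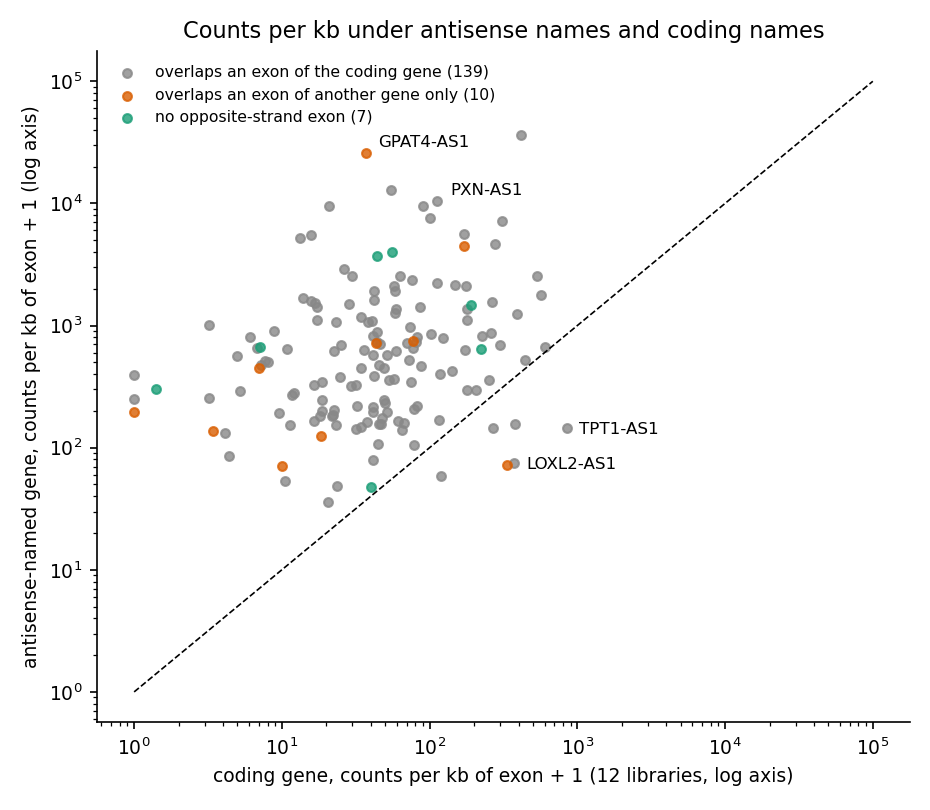
Counts per kb of exon, plus 1, for the namesake (x axis, log scale) and the antisense-named gene (y axis, log scale), summed over the 12 libraries, 1 point per pair for 156 pairs, coloured by what lies on the opposite strand. Of the points, 150 lie above the dashed line of equal values.

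Among the members with the most counts were PCBP1-AS1, PXN-AS1, AFAP1-AS1, PRC1-AS1, GPAT4-AS1, STARD4-AS1, MIF-AS1, RPL30-AS1 and SH3BP5-AS1. PCBP1-AS1, at the gene of an RNA- and iron-binding protein, was level across the study, at 4244 ± 174 CPM in T98G PEPD-OE, 3848 ± 69.7 in T98G NC, 3592 ± 140 in U251 PEPD-OE and 3690 ± 205 in U251 NC, and was called in no contrast. RPL30-AS1, at a ribosomal protein gene, was not called in either line at 1323 ± 67.3 and 1304 ± 38.4 CPM in T98G PEPD-OE and NC and 731 ± 89.3 and 777 ± 60.6 in U251. GPAT4-AS1, named for a glycerolipid-synthesis enzyme with which it shares no exon base, was not called in either line, at 1392 ± 80.1 and 1565 ± 69.4 CPM in T98G PEPD-OE and NC and 1617 ± 180 and 1742 ± 59.4 in U251. PXN-AS1, at the gene of the focal-adhesion protein paxillin, rose in U251 to 3054 ± 188 CPM in PEPD-OE against 2503 ± 64.3 in NC (log2 change 0.29, SE 0.07, adjusted p = 0.00474). That p, and every adjusted p below unless another test is named, comes from edgeR's quasi-likelihood test with Benjamini-Hochberg adjustment over 8773 genes, and a gene is called at an adjusted p under 0.05. In T98G it averaged 2513 ± 49.9 CPM in PEPD-OE and 2781 ± 139 in NC and was not called, but it was called lower there with upper-quartile scaling (-0.20), with each line fitted alone (-0.17) and with library totals alone (-0.36). GPAT4-AS1 was likewise called lower in T98G under these 3 settings (-0.22, -0.20 and -0.39) and without U251 PEPD-OE replicate 1 (-0.18).

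In 6 members the coding name had more counts per kilobase. They are TPT1-AS1 (log2 ratio -2.56), LOXL2-AS1 (-2.32), PSMA3-AS1 (-2.22), SLC25A5-AS1 (-1.28), NOP14-AS1 (-1.05) and MSC-AS1 (-0.89). Their namesakes encode a translationally controlled tumour protein, a lysyl oxidase that crosslinks collagen, a proteasome subunit, a mitochondrial ADP/ATP carrier, a ribosome-assembly protein and the transcription factor musculin. The first 2 have strongly counted namesakes, at 1504 counts for TPT1-AS1 and 6178 for TPT1, and 356 for LOXL2-AS1 and 2124 for LOXL2.

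The 7 members opposite no annotated exon are THBS2-AS1, TGFB2-AS1, KLC1-AS1, HIF1A-AS3, DACT3-AS1, SHROOM3-AS1 and KHDC1-AS1. This class looks at exons alone, so a member opposite an intron of its namesake belongs to it. KLC1-AS1 starts 122119 bases from the start of KLC1, and HIF1A-AS3 55584 bases from that of HIF1A. Reads of unspliced namesake RNA were not separated from such members, and their part was not tested. For TGFB2-AS1 the class depends on the annotation. RefSeq (GRCh38.p14) places the start of TGFB2 899 bases before that of GENCODE 29, and 129 of the 557 exon bases of TGFB2-AS1 lie past that RefSeq start. The starts of the 2 transcripts then lie 342 bases apart on opposite strands, each reading over the start of the other. Both promoters are printed because these names moved together in T98G, as 300 bases running from 250 before to 50 after the RefSeq start, at chr1:218345629-218345928 (minus strand) for TGFB2-AS1 and chr1:218345086-218345385 (plus strand) for TGFB2. Capitals mark the motif TATAAA, searched on both strands, which was matched once, 29 bases before the start of TGFB2, and not in the other window. A match occurs in 4049 of 35116 RefSeq promoters of this length (11.5%) and is a description of letters.
TGFB2-AS1: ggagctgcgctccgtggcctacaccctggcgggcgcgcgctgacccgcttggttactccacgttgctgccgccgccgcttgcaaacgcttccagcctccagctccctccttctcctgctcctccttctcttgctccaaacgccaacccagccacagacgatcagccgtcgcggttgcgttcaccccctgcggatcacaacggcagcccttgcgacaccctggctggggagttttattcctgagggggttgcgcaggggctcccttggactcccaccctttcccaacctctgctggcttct
TGFB2: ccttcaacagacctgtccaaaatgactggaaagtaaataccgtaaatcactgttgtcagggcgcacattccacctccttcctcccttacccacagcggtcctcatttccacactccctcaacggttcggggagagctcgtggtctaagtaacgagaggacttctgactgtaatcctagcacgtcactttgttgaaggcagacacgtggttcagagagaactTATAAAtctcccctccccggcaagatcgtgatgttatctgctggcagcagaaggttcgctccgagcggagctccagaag

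In T98G, 49 of the 159 members rose and 30 fell with PEPD-OE, which is 30.8% and 18.9% of them. Over all 8773 genes tested, 17.7% rose and 14.7% fell. Those genes were not matched to the members, which were chosen for high counts. Genes named as divergent transcripts (-DT) with at least 300 counts had 33.3% higher and 20.8% lower. Whether the members' larger shares come from their counts was not tested. At an unadjusted p under 0.05 there were 98 members, where 40.9% of all genes passed, and the PEPD-OE and NC libraries did not overlap for 101, where 43.5% of all genes did not. The median log2 change of the members was 0.05, against 0.0 over all genes, and 23 called members changed at least 2-fold, as did 16.4% of all genes. The split between directions depends on the scaling, because the TMM factors were 0.908 to 0.931 in T98G PEPD-OE and 1.053 to 1.078 in T98G NC: with library totals alone, an alternative added after the data were seen, 33 rose and 54 fell while the median of all genes stood at -0.21. Of the 132 namesakes tested, 22 rose and 25 fell.

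HIF1A-AS3 (chr14:61715558-61751097, minus strand), at the gene of the hypoxia-response factor, rose most. It had 214, 169 and 158 CPM in T98G PEPD-OE, against 6.14, 16.3 and 23.1 in T98G NC. Each PEPD-OE library thus lay far above each NC library. The log2 change was 3.43 (SE 0.23, adjusted p = 7.09e-30, edgeR). HIF1A rose too but by less, with 148, 155 and 123 CPM in T98G PEPD-OE against 32.7, 56.5 and 51.1 in T98G NC (log2 change 1.54, SE 0.18, adjusted p = 6.69e-13, edgeR). In U251 neither name was called, and HIF1A-AS3 averaged 86.4 ± 20.2 CPM in PEPD-OE and 65.7 ± 14.3 in NC.

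TGFB2-AS1, beside the gene of the transforming growth factor beta 2 ligand, rose in both lines. It had 865, 769 and 718 CPM in T98G PEPD-OE, against 176, 153 and 203 in T98G NC. In U251 it had 78.8, 58.9 and 55.8 CPM in PEPD-OE, against 15.2, 42.4 and 28.6 in NC. The groups did not overlap in either line, and all T98G libraries lay above all U251 libraries. The log2 changes were 2.14 in T98G (SE 0.13, adjusted p = 2.67e-33, edgeR) and 1.16 in U251 (SE 0.21, adjusted p = 1.8e-05, edgeR). TGFB2 rose with it in T98G, with 105, 78.4 and 101 CPM in PEPD-OE against 20.5, 30.1 and 17 in NC (log2 change 2.05, SE 0.24), and was at 8.07 ± 1.63 CPM in U251 PEPD-OE and 6.12 ± 2.27 in U251 NC, where it was not called.

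GCLC-AS1, SLC7A11-AS1, IDI2-AS1 and STARD4-AS1 also rose in T98G. GCLC-AS1, at the catalytic subunit of the enzyme that makes the glutathione precursor, had 349, 383 and 339 CPM in T98G PEPD-OE, against 108, 112 and 126 in T98G NC. GCLC had nearly the same values, 281, 298 and 249 CPM in PEPD-OE against 96.2, 114 and 86.3 in NC, although the names share 1.3% of the antisense exon bases. The log2 changes were 1.61 (SE 0.14) for GCLC-AS1 and 1.47 (SE 0.14) for GCLC, both called. SLC7A11-AS1 rose to 999 ± 180 CPM in T98G PEPD-OE against 571 ± 63.8 in T98G NC (log2 change 0.81, adjusted p = 0.0093, edgeR), while SLC7A11 stood at 109 ± 23.2 in PEPD-OE and 109 ± 16.3 in NC and was not called. IDI2-AS1, at an isopentenyl-diphosphate isomerase gene, had 155, 109 and 112 CPM in T98G PEPD-OE and 32.7, 32.7 and 41.3 in T98G NC (log2 change 1.79, SE 0.20), whereas IDI2 fell to 37.9 ± 3.05 in PEPD-OE, against 84.4 ± 5.07 in NC (log2 change -1.14, SE 0.21). Only 7.3% of the IDI2-AS1 exon bases lie opposite IDI2, and IDI1 shares more of them. IDI1 averaged 26.1 ± 6.23 CPM in T98G PEPD-OE and 17.1 ± 9.27 in T98G NC and was not called. STARD4-AS1, at a sterol-transfer gene, had 2036, 1930 and 1865 CPM in PEPD-OE and 1385, 1234 and 1260 in NC, without overlap (log2 change 0.59, SE 0.08). SREBF2-AS1, at the gene of the master regulator of cholesterol synthesis, rose by 0.66 (SE 0.15) and SREBF2 by 1.98 (SE 0.29) on the log2 scale. SREBF2-AS1 lies outside the naming rule and was picked with its values in view.

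CHMP1B-AS1, KLC1-AS1, RBM5-AS1 and ZBTB47-AS1 rose there too. CHMP1B-AS1, which lies wholly opposite exons of CHMP1B, an ESCRT-III subunit that shapes membranes, had 803, 847 and 839 CPM in T98G PEPD-OE, against 256, 260 and 272 in T98G NC. That is a log2 change of 1.65 (SE 0.11, adjusted p = 6.29e-31, edgeR), and CHMP1B rose by 1.11 (SE 0.25). KLC1-AS1, opposite no exon at the gene of a kinesin light chain that links motors to cargo, had 161, 131 and 142 CPM in PEPD-OE and 55.3, 38.9 and 28 in NC (log2 change 1.90, SE 0.19). KLC1 fell to 277, 246 and 232 CPM in PEPD-OE, against 477, 476 and 462 in NC (log2 change -0.91, SE 0.11). RBM5-AS1, at a splicing-factor gene, rose to 248 ± 29.2 CPM in PEPD-OE against 100 ± 10.4 in NC, and ZBTB47-AS1, at a zinc-finger gene, to 115 ± 43.3 against 41.5 ± 6.60. Replicate 1 stood high in the ZBTB47-AS1 PEPD-OE libraries at 165 CPM, against 87.4 and 92.6 in the other two, and its groups still did not overlap.

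PRKG1-AS1, THBS1-AS1 and HMGA2-AS1 led the members that fell in T98G. PRKG1-AS1, at the gene of the cGMP-dependent protein kinase, had no count in any T98G PEPD-OE library, against 26.6, 25.1 and 12.2 CPM in T98G NC, and was therefore at least 14.2-fold lower, taking 3 counts over the group as the floor. Part of its exon sequence lies opposite DKK1, a secreted Wnt inhibitor, which fell to 0.503 ± 0.87 CPM in PEPD-OE, against 16.3 ± 1.96 in NC. THBS1-AS1, at the gene of thrombospondin-1, an angiogenesis-inhibiting matrix protein, had 12.9, 16.6 and 6.91 CPM in T98G PEPD-OE, against 100, 92.9 and 98.5 in T98G NC (log2 change -3.0, SE 0.27, adjusted p = 6.23e-20, edgeR). THBS1 fell as well, with 274, 222 and 293 CPM in PEPD-OE against 1218, 1211 and 1236 in NC (log2 change -2.21, SE 0.11). HMGA2-AS1, at the gene of an architectural chromatin protein, had 7.17, 4.52 and 4.15 CPM in PEPD-OE and 47.1, 25.1 and 21.9 in NC (log2 change -2.44, SE 0.42), and HMGA2 was not called at these low counts.

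IRF1-AS1, FOXD1-AS1, MYLK-AS1, CCDC86-AS1 and MORC2-AS1 fell as well. IRF1-AS1, at the gene of an interferon-induced transcription factor, had 248, 274 and 293 CPM in T98G PEPD-OE and 681, 570 and 618 in T98G NC (log2 change -1.19, SE 0.11), and IRF1 fell by 0.83 on the log2 scale (SE 0.13). FOXD1-AS1, which lies wholly opposite an exon of a forkhead transcription factor gene, had 118, 101 and 122 CPM in PEPD-OE and 258, 274 and 283 in NC (log2 change -1.26, SE 0.14), beside -1.42 (SE 0.35) for FOXD1. MYLK-AS1, at the myosin light chain kinase gene, fell by 1.33 and MYLK by 0.93 (SE 0.25 and 0.17), and CCDC86-AS1 fell by 1.34 and CCDC86 by 1.02 (SE 0.16 and 0.20). MORC2-AS1, at the gene of a chromatin-compacting ATPase, fell to 32.9 ± 7.57 CPM in PEPD-OE against 79.3 ± 16.7 in NC, while MORC2 stood at 39.9 ± 3.93 and 29.2 ± 9.5 and was not called. In each of these 5 members every PEPD-OE library lay below every NC library.

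**Figure D2:**
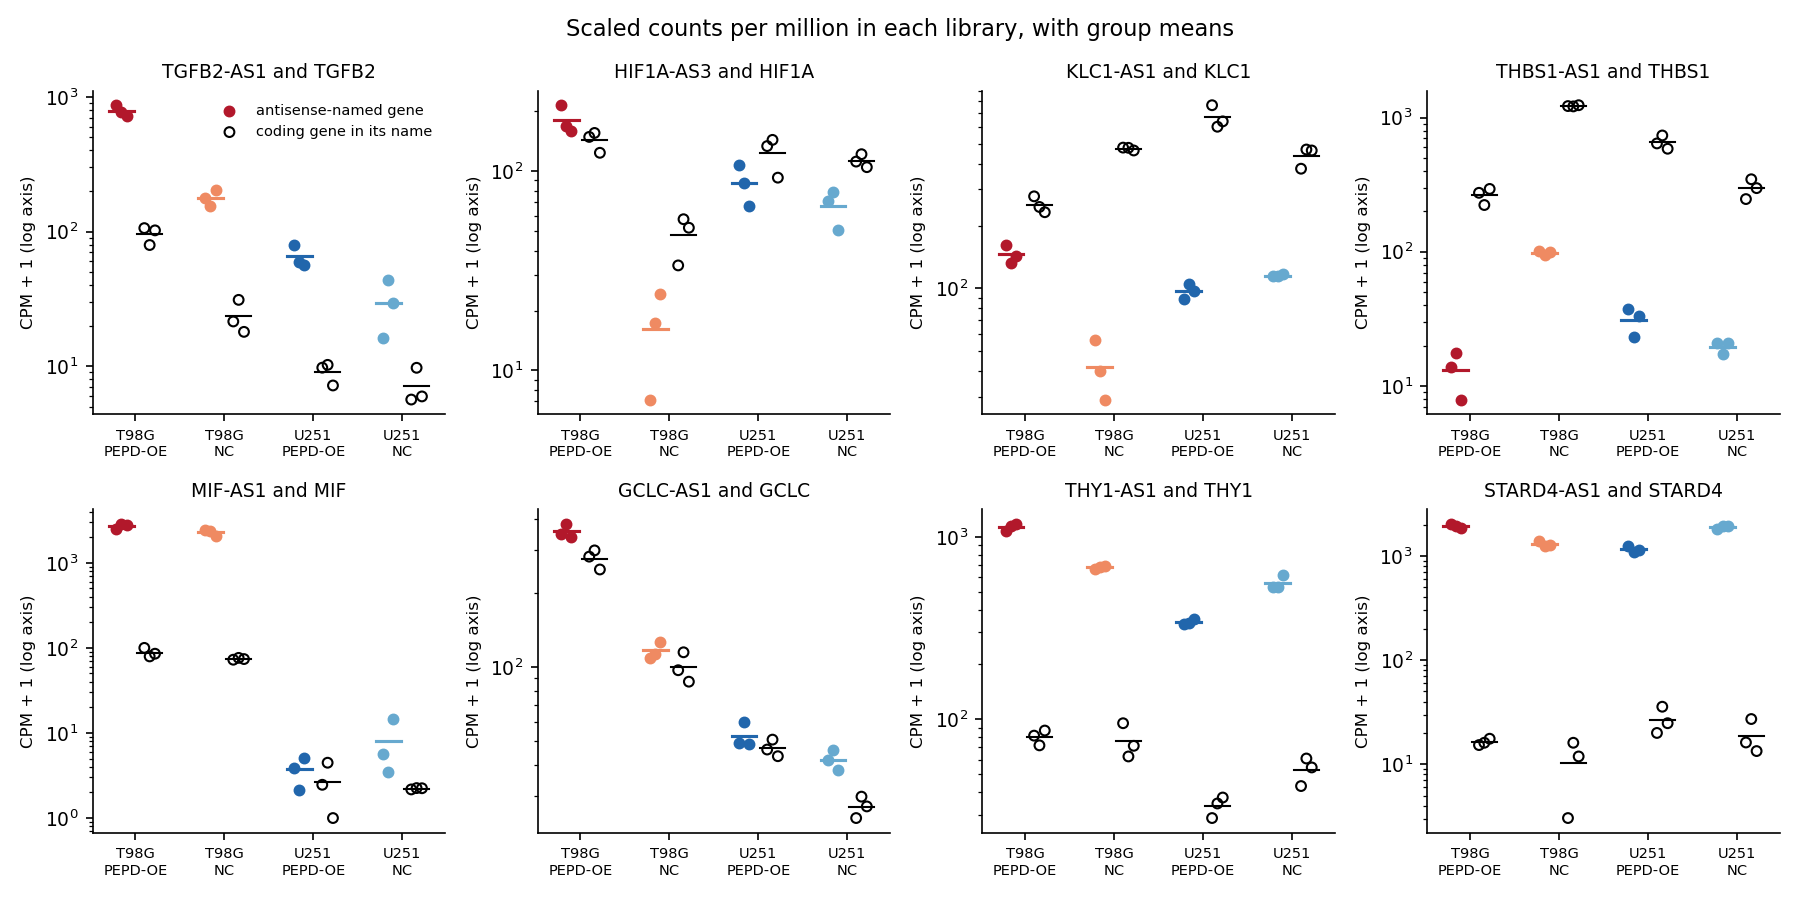
Scaled CPM plus 1 (log axis) in each of the 12 libraries for 8 members (filled points) and their namesakes (open points), with a bar at each group mean. TGFB2-AS1 with TGFB2, GCLC-AS1 with GCLC and THBS1-AS1 with THBS1 moved the same way in T98G, KLC1-AS1 and KLC1 in opposite directions, and MIF-AS1 stood between 2074 and 2879 CPM in T98G and at 13.7 or less in U251.

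In U251, 17 members rose and 19 fell with PEPD-OE, or 10.7% and 11.9% of 159. The background over all 8773 genes, again not matched to the members for counts, was 4.13% higher and 4.42% lower. At an unadjusted p under 0.05 there were 64 members, where 20.4% of all genes passed. The groups did not overlap for 58, against 22.4% of all genes, and 4 called members changed at least 2-fold, against 2.09%. The median log2 change was -0.02, against 0.0 over all genes. With library totals alone 25 rose and 13 fell, while the median of all genes stood at 0.08. Of the 132 namesakes tested, 9 rose and 5 fell.

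With TGFB2-AS1, the members with the largest called rises in U251 were TMPO-AS1, HMGA2-AS1 and ALDH1A3-AS1. TMPO-AS1, at the gene of a nuclear-lamina protein, had 42.3, 69.3 and 34.1 CPM in U251 PEPD-OE, against 12.8, 18.7 and 24.8 in U251 NC (log2 change 1.37, SE 0.26, adjusted p = 4.87e-05, edgeR). HMGA2-AS1 had 86.1, 56.6 and 64.1 CPM in PEPD-OE and 30.3, 33.7 and 26.1 in NC (log2 change 1.17, SE 0.22). Neither pair of groups overlapped. ALDH1A3-AS1, at the gene of a retinaldehyde dehydrogenase that marks mesenchymal glioma stem cells, averaged 473 ± 53.9 CPM in U251 PEPD-OE, against 233 ± 15.2 in U251 NC, without overlap (log2 change 1.01, SE 0.10, adjusted p = 1.87e-15, edgeR). ALDH1A3 was near its floor there, at 11.1 ± 7.08 and 5.57 ± 4.31 CPM, and was not called.

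PAPPA-AS1, wholly opposite an exon of the gene for a protease that frees insulin-like growth factors, rose to 576, 508 and 481 CPM in U251 PEPD-OE, against 265, 278 and 263 in U251 NC, beside 13.7 ± 1.79 and 7.29 ± 0.972 for PAPPA. TMEM202-AS1 rose in both lines, to 143 ± 23.6 CPM in T98G PEPD-OE against 83.0 ± 13.1 in T98G NC and to 56.6 ± 16.7 in U251 PEPD-OE against 28.0 ± 3.81 in U251 NC. TMEM202 had no count in any library. Among genes opposite its exons is ARIH1, a ubiquitin ligase, which was not called in either line. ARIH1 had 42.3, 30 and 23.8 CPM in U251 PEPD-OE, against 23.3, 17.5 and 19.9 in U251 NC, without overlap (log2 change 0.62, SE 0.28). In T98G it averaged 46 ± 12.8 CPM in PEPD-OE and 42.6 ± 3.66 in NC. NUP153-AS1, at a nuclear-pore gene, averaged 48.8 ± 14.6 CPM in U251 PEPD-OE and 24.5 ± 10.2 in U251 NC (log2 change 0.96, adjusted p = 0.00474, edgeR). SLC7A11-AS1 averaged 321 ± 67 CPM in U251 PEPD-OE and 169 ± 47 in U251 NC (log2 change 0.92, adjusted p = 0.0328, edgeR), and here SLC7A11 rose too (0.67, SE 0.19). NUP153-AS1 was not called without U251 PEPD-OE replicate 1 (0.73), U251 NC replicate 1 (0.83) or U251 NC replicate 3 (0.78). SLC7A11-AS1 was not called without U251 PEPD-OE replicate 1 (0.79), U251 PEPD-OE replicate 2 (0.88), U251 NC replicate 3 (0.99), T98G NC replicate 1 (0.92) or T98G NC replicate 3 (0.92).

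Of the members that fell in U251, DLX6-AS1, STARD4-AS1 and THY1-AS1 changed most. DLX6-AS1, at a homeobox gene of forebrain interneuron development, had 184, 173 and 171 CPM in U251 PEPD-OE, against 329, 252 and 302 in U251 NC (log2 change -0.75, SE 0.13). STARD4-AS1 had 1257, 1090 and 1130 CPM in U251 PEPD-OE, against 1807, 1937 and 1931 in U251 NC (log2 change -0.71, SE 0.08, adjusted p = 3.3e-12, edgeR). THY1-AS1, at the gene of the surface glycoprotein CD90, had 333, 336 and 353 CPM in U251 PEPD-OE, against 529, 533 and 619 in U251 NC (log2 change -0.71, SE 0.10). In all 3 every PEPD-OE library lay below every NC library. Smaller falls were those of P4HA2-AS1 (-0.66), at a collagen prolyl hydroxylase gene, IER5L-AS1 (-0.64), MFSD12-AS1 (-0.61), at a lysosomal cysteine transporter gene, and ELF3-AS1 (-0.55), at an epithelial ETS factor gene. P4HA2-AS1, at 33.6 ± 4.68 CPM in U251 PEPD-OE and 53.4 ± 6.40 in U251 NC, lost its call in 9 of 21 alternatives (-0.73 to -0.56), and MFSD12-AS1 lost its call without U251 PEPD-OE replicate 2 (-0.48) or U251 NC replicate 3 (-0.50).

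Set side by side, 23 members were called in both lines, 56 in T98G and not in U251, 13 in U251 and not in T98G, and 67 in neither. A call in 1 line alone is not a difference between the lines. Of the 23, 12 rose in T98G and fell in U251, 4 fell in T98G and rose in U251, 5 rose in both and 2 fell in both. The share of all genes called in both lines, by direction, was not counted. This split is thus not read as a trait of the members. The 5 are TGFB2-AS1, SLC7A11-AS1, TMEM202-AS1, PYCR1-AS1 and WWTR1-AS1, named for the growth factor, the cystine importer, an uncharacterised membrane protein, a proline-synthesis enzyme and a Hippo-pathway coactivator. Those that fell in both are MFSD12-AS1 and HEXIM2-AS1, whose namesake HEXIM2 inhibits the elongation factor P-TEFb. PYCR1-AS1 and WWTR1-AS1 lie outside the naming rule and were picked with their values in view: PYCR1-AS1 rose by 0.36 in T98G and 0.53 in U251 on the log2 scale, and WWTR1-AS1 by 0.60 in both.

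**Figure D3:**
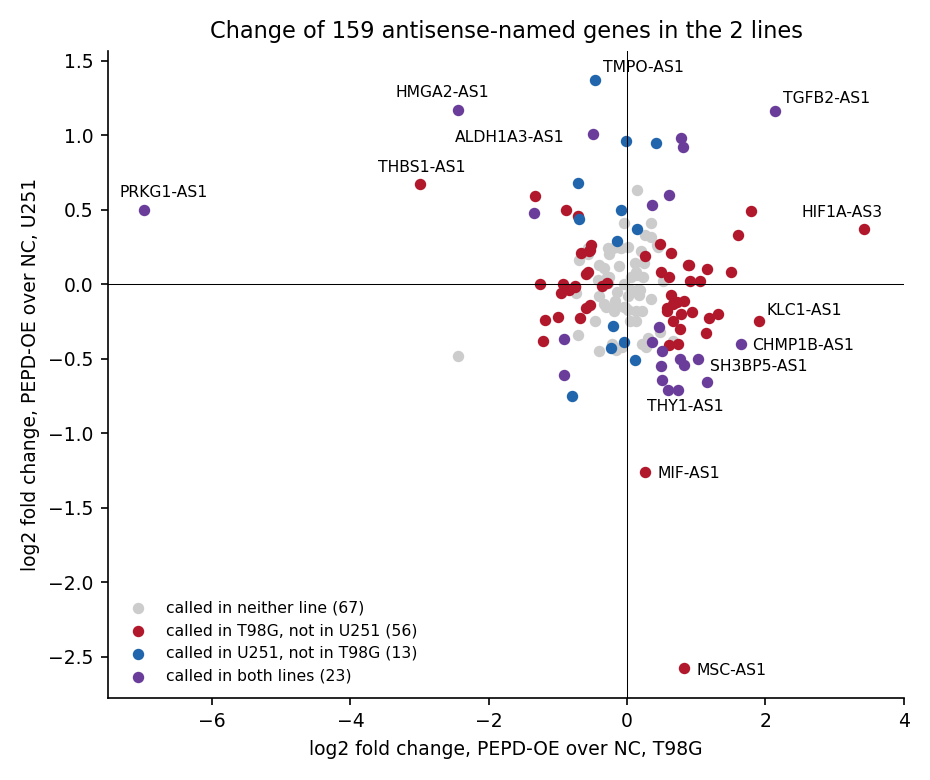
Log2 change PEPD-OE over NC of the 159 members in T98G (x axis) and U251 (y axis), coloured by the line in which they were called: both (23), T98G and not U251 (56), U251 and not T98G (13) and neither (67). HIF1A-AS3 lies furthest right and TGFB2-AS1 in the upper right, with THY1-AS1 in the lower right. PRKG1-AS1 is drawn at a fitted value that rests on a group with no count.

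The difference between the changes, T98G minus U251, was called for 71 members, 40 higher and 31 lower (25.2% and 19.5%), against 14.1% and 13.6% of all genes. That background too was not matched for counts. With library totals alone the split was 29 higher and 52 lower, around a median of all genes of -0.32. Higher differences included HIF1A-AS3 (3.06, SE 0.31), KLC1-AS1 (2.14, SE 0.25), CHMP1B-AS1 (2.05, SE 0.15) and P4HA2-AS1 (1.83, SE 0.28). CHMP1B-AS1 fell in U251 to 343, 324 and 315 CPM in PEPD-OE, against 440, 441 and 412 in NC, the reverse of its rise in T98G. P4HA2-AS1 rose in T98G to 129, 110 and 126 CPM in PEPD-OE, against 57.3, 56.5 and 49.8 in NC, and P4HA2 rose there by 1.17. THY1-AS1 had 1080, 1153 and 1182 CPM in T98G PEPD-OE, against 667, 687 and 693 in T98G NC, so that it rose by 0.74 in T98G and fell by 0.71 in U251 (difference 1.45, SE 0.14).

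SH3BP5-AS1, at the gene of a Rab11 exchange factor, showed the same opposition. It had 862, 880 and 909 CPM in T98G PEPD-OE, against 467, 427 and 418 in T98G NC, and 1165, 969 and 984 CPM in U251 PEPD-OE, against 1500, 1420 and 1488 in U251 NC. The groups did not overlap in either line (log2 changes 1.02 and -0.50). Lower differences included THBS1-AS1 (-3.67, SE 0.40), HMGA2-AS1 (-3.61, SE 0.47), MYLK-AS1 (-1.92, SE 0.37) and TMPO-AS1 (-1.84, SE 0.36). THBS1-AS1 had 36.5, 22 and 32 CPM in U251 PEPD-OE and 19.8, 16.2 and 19.9 in U251 NC and was not called there, while THBS1 rose in U251 to 653 ± 75.8 CPM in PEPD-OE against 296 ± 49.8 in NC (log2 change 1.14, SE 0.11). PRKG1-AS1 rose in U251 to 168, 194 and 184 CPM in PEPD-OE, against 115, 146 and 127 in NC (log2 change 0.50, adjusted p = 0.0115, edgeR), the opposite of its loss in T98G. ALDH1A3-AS1 fell in T98G to 1199, 1125 and 1055 CPM in PEPD-OE, against 1615, 1594 and 1562 in NC (log2 change -0.50), and rose in U251.

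Each member was also read against its namesake within the same library. In T98G the pair was called higher for both names in 12 cases and lower for both in 11. In 2 cases the member rose and the namesake fell, and in 3 the member fell and the namesake rose. Another 25 members rose beside a namesake that was tested and not called, and 9 beside one that had too few counts to test. In U251, 3 pairs rose under both names and none fell under both. Across the 132 pairs with both names tested, the Pearson correlation of the log2 changes was 0.44 in T98G and 0.34 in U251. These are across genes and the 2 values of a pair come from the same libraries. Over all 8773 genes, 17.7% rose and 14.7% fell in T98G, and 4.13% and 4.42% in U251. How often both names were called together over all pairs of the table was not counted. The counts of agreeing pairs are thus not read as a trait of the members.

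The change of the antisense-to-coding ratio was then tested, by an edgeR fit of both counts with a term for each library, over 370 pairs with at least 30 counts under each name. Of the 145 pairs with a member, 20 shifted to the antisense name and 14 to the coding name in T98G, where 15.7% of all 370 pairs were called. In U251, 2 shifted to the antisense name and 5 to the coding name, where 1.89% of all pairs were called. The median log2 ratio change over all 370 pairs was 0.18 in T98G, towards the antisense name, and 0.02 in U251. The split in T98G therefore lies around a median above 0. Without U251 PEPD-OE replicate 1, U251 PEPD-OE replicate 2 or U251 NC replicate 3, 3 of the 7 U251 calls were made.

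**Figure D4:**
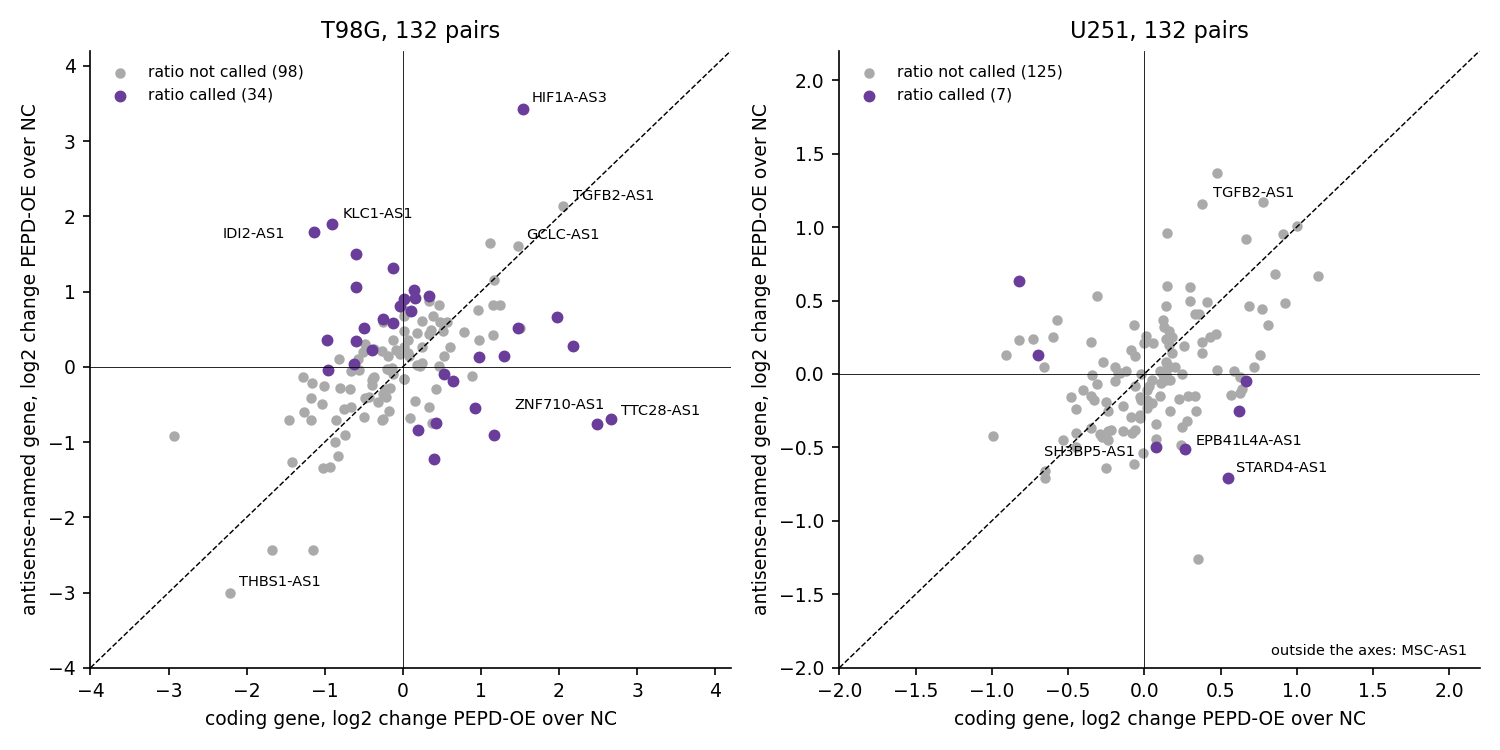
Log2 change PEPD-OE over NC of the namesake (x axis) and the antisense-named gene (y axis) for the 132 pairs with both names tested, in T98G (left) and U251 (right). The dashed line marks equal change, and the 34 pairs in T98G and 7 in U251 whose ratio was called are purple; MSC-AS1 lies outside the axes in U251.

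KLC1-AS1 shifted in opposite directions in the lines. Of the counts under KLC1-AS1 and KLC1 together, 36.6% were under the antisense name in T98G PEPD-OE and 7.55% in T98G NC, while in U251 the shares were 12.7% in PEPD-OE and 20.9% in NC. The log2 ratio changed by 2.80 in T98G (SE 0.22, adjusted p = 4.39e-33, edgeR) and by -0.86 in U251 (SE 0.18, adjusted p = 0.000429, edgeR). The share of IDI2-AS1 was 76.8% in T98G PEPD-OE and 30.2% in T98G NC (2.93, SE 0.29), that of HIF1A-AS3 56.0% and 25.4% (1.90, SE 0.31), and that of TTBK2-AS1, at a tau-tubulin kinase gene, 95.8% and 87.9% (1.67, SE 0.34). ZBTB47-AS1 shifted by 2.07 (SE 0.50), and without T98G PEPD-OE replicate 1 by 1.50, no longer called. In contrast the ratio was not called for TGFB2-AS1 (0.09, SE 0.29), GCLC-AS1 (0.14, SE 0.20) and P4HA2-AS1 (0.00, SE 0.19) in T98G, where both names of each pair rose.

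Shifts to the coding name came with a rise of the namesake in 4 of the 5 named. ZNF710-AS1, at a zinc-finger gene, fell to 73.2, 75.4 and 38.7 CPM in T98G PEPD-OE, against 123, 111 and 87.5 in T98G NC, while ZNF710 rose to 412, 327 and 272 CPM in PEPD-OE, against 53.2, 50.2 and 72.9 in NC. Its antisense share was 15.5% in T98G PEPD-OE and 63.6% in T98G NC (log2 ratio change -3.26, SE 0.24, adjusted p = 6.56e-37, edgeR), and 88.1% and 92.1% in U251. TTC28 rose to 35.9, 28.6 and 27.7 CPM in T98G PEPD-OE, against 0, 5.02 and 7.29 in T98G NC, and TTC28-AS1 stood at 9.44 ± 5.69 and 15.5 ± 4.10 (ratio change -3.37, SE 0.63). BCDIN3D rose by 2.18 beside BCDIN3D-AS1, which was not called (ratio change -1.91, SE 0.51), and without T98G NC replicate 2 that ratio changed by -1.41 and was not called. MORC2-AS1 shifted as well (ratio change -1.62, SE 0.35), with its namesake not called.

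HEXIM2-AS1 shares no exon base with HEXIM2 and lies opposite HEXIM1, which encodes the other P-TEFb inhibitor. It fell to 63.1, 84.4 and 42.9 CPM in T98G PEPD-OE, against 106, 129 and 115 in T98G NC, and HEXIM2 rose to 25.9 ± 6.14 against 11.7 ± 3.68 (ratio change -2.09, SE 0.39). HEXIM1 rose to 751 ± 55.9 CPM in T98G PEPD-OE against 105 ± 24.8 in T98G NC, a log2 change of 2.88 (SE 0.13). Counts under HEXIM2-AS1 thus moved against those under both coding names. Since the counted strand is not known, it cannot be said which transcript each of these counts describes. In U251, HEXIM2-AS1 averaged 481 ± 61.1 CPM in PEPD-OE and 620.0 ± 54.2 in NC, and HEXIM1 213 ± 9.17 and 280.0 ± 26.4, both lower in PEPD-OE.

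In U251 the shifts were smaller. STARD4-AS1 moved to the coding name by -1.26 (SE 0.30), EPB41L4A-AS1, at a cytoskeletal-adaptor gene, by -0.77 (SE 0.15), HYOU1-AS1, at an endoplasmic-reticulum chaperone gene, by -0.73 (SE 0.22) and SH3BP5-AS1 by -0.59 (adjusted p in the order given 0.00198, 0.000322, 0.0469 and 0.0105, edgeR). Both shifts to the antisense name came with a fall of the coding gene, whose counts are part of the ratio. FMNL1-AS1, at a formin gene, gained 1.43 (SE 0.33) and RUSC1-AS1 0.84 (SE 0.24), while FMNL1 fell by 0.82 and RUSC1 by 0.70. FMNL1-AS1 went the other way in T98G, by -1.13 (SE 0.34), where FMNL1 rose by 1.30. Leaving out 1 of the 6 U251 libraries ended the RUSC1-AS1 call in every case. It ended the HYOU1-AS1 call without PEPD-OE replicate 1 or 2 or NC replicate 1 or 3 (-0.65 to -0.60), and the SH3BP5-AS1 call without PEPD-OE replicate 1 or 2 or NC replicate 2 or 3 (-0.56 to -0.52). The STARD4-AS1 call was lost without PEPD-OE replicate 2 (-0.96) or NC replicate 3 (-1.05), and that of FMNL1-AS1 without PEPD-OE replicate 1 (1.16).

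**Figure D5:**
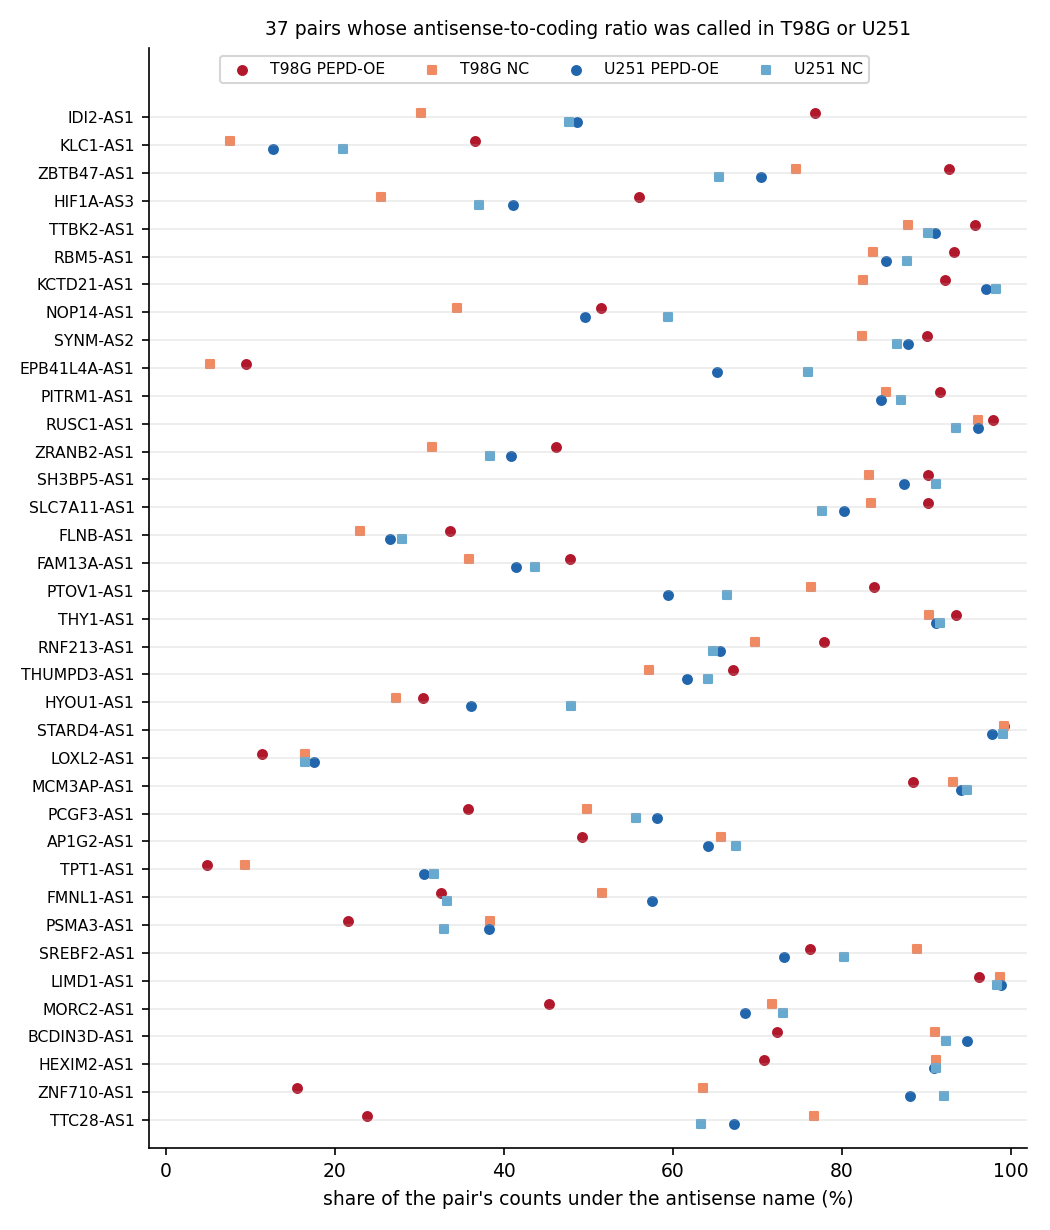
Share of each pair's counts under the antisense name (x axis, %), over the 3 libraries of a group, for the 37 pairs whose ratio was called in T98G or U251. Circles are PEPD-OE and squares NC, in reds for T98G and blues for U251, and the shares of ZNF710-AS1 in T98G lie at 15.5% for PEPD-OE and 63.6% for NC.

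The lines were also compared without PEPD-OE. Between T98G NC and U251 NC, 47 members were higher in T98G NC and 71 lower (29.6% and 44.7%), against 24.4% and 24.3% of all genes, and the median log2 difference was -0.23. Here as well, the background was not matched for counts. At an unadjusted p under 0.05 there were 125, where 54.2% of all genes passed. The groups did not overlap for 124, against 55.2% of all genes, and 57 called members differed at least 2-fold, against 28.2%. With library totals alone 54 were higher and 64 lower. Most called pairs went the same way: both names were higher in 26 cases and lower in 30, the member lower and the namesake higher in 6, and the reverse in none. Of the 132 namesakes tested, 28.8% were higher and 28.0% lower. The share of agreeing pairs over the whole table was not counted, so this is not read as a trait of the members.

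MIF-AS1, opposite the gene of macrophage migration inhibitory factor, a cytokine, differed most among the members with counts in every group. It had 2427, 2371 and 2074 CPM in T98G NC, against 4.66, 2.5 and 13.7 in U251 NC (log2 difference 8.34, SE 0.16), and MIF had 71.6, 75.3 and 72.9 CPM in T98G NC, against 1.17, 1.25 and 1.24 in U251 NC. Both names were thus near the floor in U251. Within T98G, MIF-AS1 had 2521, 2879 and 2818 CPM in PEPD-OE (log2 change 0.26, adjusted p = 0.0173, edgeR), and this call did not hold without T98G PEPD-OE replicate 2 (0.22), T98G PEPD-OE replicate 3 (0.24) or T98G NC replicate 3 (0.19). FOXD1-AS1 was at least 225-fold higher in T98G NC, with no count in U251, and MSC-AS1, at the musculin gene, had 158, 163 and 148 CPM in T98G NC against 0, 2.5 and 0 in U251 NC, a ratio of 192 (exact 95% counting interval 52.8 to 1595). MSC-AS1 and MSC both rose in T98G with PEPD-OE, by 0.82 (SE 0.14) and 1.25 (SE 0.16). ALDH1A3-AS1 (2.77, SE 0.10) and TGFB2-AS1 (2.64, SE 0.18) were also higher in T98G NC than in U251 NC.

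Lower in T98G NC were DLX6-AS1, EPB41L4A-AS1, THBS2-AS1, KHDC1-AS1 and MAP3K4-AS1. DLX6-AS1 had 4.09, 0 and 0 CPM in T98G NC, against 329, 252 and 302 in U251 NC, a ratio of 311 in favour of U251 NC (exact 95% counting interval 85.8 to 2572). EPB41L4A-AS1 had 14.3, 12.6 and 14.6 CPM in T98G NC, against 620, 625 and 648 in U251 NC (log2 difference -5.50, SE 0.18). Its namesake did not share this, at 250, 241 and 267 CPM in T98G NC and 206, 200 and 193 in U251 NC. THBS2-AS1, opposite no exon at the thrombospondin-2 gene, had 18.4, 20.1 and 19.5 CPM in T98G NC, against 629, 580 and 630 in U251 NC (-4.97, SE 0.17), and THBS2 was slightly higher in T98G NC (0.78, SE 0.28). KHDC1-AS1 differed by -4.35 (SE 0.37) beside -3.49 for KHDC1, and MAP3K4-AS1, at a stress-kinase gene, by -3.66 (SE 0.29) beside -3.06 for MAP3K4.

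By the same classes of opposite strand, of the 7 members opposite no exon, 3 rose and none fell in T98G (HIF1A-AS3, TGFB2-AS1 and KLC1-AS1), and 2 rose and none fell in U251 (TGFB2-AS1 and THBS2-AS1, with THBS2-AS1 at 834 ± 102 CPM in PEPD-OE against 613 ± 28.2 in NC). The shares of all genes were those given above, 17.7% and 14.7% in T98G and 4.13% and 4.42% in U251. In T98G, THBS2-AS1 was called lower with library totals alone (-0.91) and without T98G PEPD-OE replicate 2 (-1.08), and KHDC1-AS1 with library totals alone and without T98G PEPD-OE replicate 1. DACT3-AS1 and SHROOM3-AS1 were called in neither line, at 20.4 to 81.1 mean CPM. Of the 12 opposite another gene's exon alone, 2 rose and 3 fell in T98G and 1 rose and 2 fell in U251. PITX1-AS1, named for a hindlimb homeobox gene, was the one that rose in U251, to 594 ± 126 CPM in PEPD-OE against 459 ± 74.9 in NC, with groups that overlapped, and CCDC144NL-AS1 stood at 211 to 231 mean CPM in all 4 groups.

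Of the antisense-named genes under 300 counts, 136 passed the filter. Of these, 39 rose (28.7%) and 8 fell (5.88%) in T98G, against 17.7% and 14.7% of all genes, with a median log2 change of 0.35. None rose and 2 fell (1.47%) in U251, against 4.13% and 4.42% of all genes. At such low sums a gene can pass the filter through the 1 group where it is high. The split between directions is therefore not a result about these genes. The 24 genes named as divergent transcripts (-DT), which also have at least 300 counts, had 8 higher (33.3%) and 5 lower (20.8%) in T98G. In U251 they had 3 higher (12.5%) and none lower.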

How the data were processed

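RNA of 12 libraries was measured by strand-marked sequencing of polyadenylated RNA, with 3 libraries for each of 4 groups, per the labels' protocols. The submitters' processing notes list FastQC, fastp, HISAT2, featureCounts, Subread and GRCh38 without versions, and no source used here gives the annotation release behind the counts. The authors deposited raw counts for each Ensembl gene, as whole numbers with no normalization by the authors found in the values, and 20573 of the 63241 rows carry no symbol.

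Genes were kept by filterByExpr (minimum count 10), scaled by TMM and tested in R 4.3.3 with edgeR 4.0.16, by a robust quasi-likelihood fit of all 12 libraries with 1 mean per group and 8 residual degrees of freedom. P-values are two-sided and adjusted by Benjamini and Hochberg over 8773 genes, with calls at an adjusted p under 0.05. An exact test of 3 against 3 cannot go below 0.1, so no single value was tested apart from the fit. The SE is the size of the log2 change over the root of F. Ratios of antisense to coding counts were fitted on 24 columns with a term per library over 370 pairs with at least 30 counts under each name. A group with no count was given a floor of 3 counts over the group, and intervals (exact, 95%) and floors cover counting error only. Scripts were tested on simulated data.

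Positions, exons and lengths came from GENCODE 29, matched by Ensembl identifier (58228 of the identifiers), and promoters from RefSeq GRCh38.p14, which held 110 members and 134 namesakes. Both counting names of a pair, and lengths, follow these annotations and not the one used for counting.

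Named members are the 10 with the most counts; up to 8 per line and direction called, by largest change, with the higher group averaging at least 2 CPM; up to 5 per sign for T98G NC minus U251 NC, for the difference between lines and, per line, for the ratio; up to 8 sharing no exon with the namesake and up to 8 opposite no exon; and the 3 on each side of 300 counts. Of the members so named, 2 are not reported here. The members and lists were chosen with earlier results of these data known. No same-group libraries agreed within sampling noise (chi-square per degree of freedom 1.35 to 2.81). Deviations of same-numbered PEPD-OE and NC libraries correlated at -0.04 to 0.06, so the numbers were not taken to pair libraries. Alternatives were other scalings and filters, DESeq2 1.42.0, each line alone, the replicate block, robust estimation off and each library left out. The 3 lists beside the members were the namesakes, antisense-named genes under 300 counts and -DT genes, and cell markers were listed for 5 cell types.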

Additional observations from a re-analysis of the deposited data

Results flagged for a closer look

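For 71 members the change in T98G differed from the change in U251 by the test of that difference. Among those named above, HIF1A-AS3 (3.06), KLC1-AS1 (2.14), CHMP1B-AS1 (2.05) and P4HA2-AS1 (1.83) had differences (T98G change minus U251 change) above 0 on the log2 scale, and THBS1-AS1 (-3.67), HMGA2-AS1 (-3.61), MYLK-AS1 (-1.92) and TMPO-AS1 (-1.84) differences under 0. The fitted difference of PRKG1-AS1 (-7.48) rests on a T98G PEPD-OE group with no count and is no measure of size. That of MIF-AS1 (1.52, adjusted p = 0.0391, edgeR) rests on 7 and 17 counts in U251 PEPD-OE and NC, and without U251 NC replicate 3, the highest of the U251 libraries, it was 0.61 and not called.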

How the results depend on the processing

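Counts of called members stayed within 1.5 times the reported 79 (T98G), 36 (U251), 71 (difference) and 118 (T98G NC minus U251 NC) in every alternative run. DESeq2 gave 70, 30, 51 and 108, and library totals alone 87, 38, 81 and 118, of which 63, 30, 60 and 111 were the same members. Leaving out 1 library gave 66 to 86, 24 to 39, 55 to 72 and 107 to 121, and 3 to 7 ratio calls in U251. With the replicate block, where the pairing is a number only, the counts were 82, 35, 72 and 118, with 33 ratio calls in T98G and 6 in U251. Among members with at least 1000 counts, 81 of 82 exceeded the namesake per kilobase. Of the values of single named genes under an alternative, 1667 kept direction and side of the threshold, 62 lost the call, 13 gained one and 17 changed direction, none of the last called. With totals alone these were RPL30-AS1 (-0.20), PCBP1-AS1 (-0.08), PITX1-AS1 (-0.07), CCDC144NL-AS1 (-0.09), DACT3-AS1 (-0.09), SHROOM3-AS1 (-0.02) and INPP5B-AS1 (-0.16). RPL30-AS1 also turned under upper-quartile scaling (-0.03) and with each line alone (-0.01), and leaving out a library, which gave ranges of -0.01 to 0.06 for RPL30-AS1, -0.04 to 0.22 for DACT3-AS1, -0.02 to 0.44 for SHROOM3-AS1, -0.26 to 0.75 for INPP5B-AS1 and -2.77 to 2.01 for DLX6-AS1, turned each of these, all in T98G. Calls lost most often were the HYOU1-AS1 ratio in U251 (10 of 16 alternatives), the difference of MIF-AS1 (9 of 20, 0.61 to 1.60), P4HA2-AS1 in U251 (9 of 21), the RUSC1-AS1 ratio in U251 (7 of 16) and MIF-AS1 in T98G (6 of 21, 0.04 with totals alone and 0.21 with upper quartiles). PRC1-AS1 in T98G was not called with totals alone (0.04) or without T98G PEPD-OE replicate 1 (0.21). DESeq2 gave no adjusted p for HMGA2-AS1 in U251. The cause was not tested. Depth limits what can be seen: 3 counts equal at least 3.25 CPM, so namesakes of a few CPM give wide ratios.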

Other observations

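Around MIF-AS1 the contrast between the lines was shared by MIF and not by SMARCB1 or DDTL. Within 110000 bases, the genes with at least 30 counts were SMARCB1, a chromatin-remodelling subunit, with 185 counts over the T98G libraries and 228 over the U251 libraries, MIF with 337 and 7, MIF-AS1 with 10485 and 24, and DDTL with 13 and 17. Markers of other cell types, summed over each list as mean CPM in T98G PEPD-OE, T98G NC, U251 PEPD-OE and U251 NC, were 598, 271, 339 and 502 for 5 fibroblast genes, mostly COL1A2, and 22.9, 21.7, 5.95 and 5.71 for 5 macrophage and microglia genes. They were 6.89, 3.75, 12.9 and 9.32 for 4 endothelial genes, of which VWF had no count, and 0.461, 0, 0.973 and 0 for 3 epithelial genes, of which EPCAM and KRT5 had none. Their part in the results was not tested.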
